A study of Mus musculus with 2 samples.

Results

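The genes described here are 8 regulators of T cell memory, tissue exit and effector fate: Tcf7, Lef1, S1pr1, Klf2, Satb1, Tox, Tbx21 and Eomes. They were chosen by symbol, and all 8 were among the 31053 genes counted in both libraries. The study profiled subcutaneous tumours grown in mice from MC38 cells, a mouse colon carcinoma line, by droplet single-cell RNA sequencing with a 3′ v3 kit. One library came from tumours labelled UBD overexpression and one from control tumours. UBD is ubiquitin D, a ubiquitin-like modifier, studied here for its part in how colorectal tumours escape immunity. Strain, sex, age, number of animals and days of growth are not stated in the labels, nor is the vector or the species of the UBD insert, and no antibody treatment is named for these 2 libraries. With 1 library per condition no test was possible, so every interval below covers counting error only and no difference has a replicate check.

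In T cells, TCF1 (the product of Tcf7) and its relative LEF1 bind DNA through an HMG box and maintain the naive and memory state, in which a cell can divide again and give rise to effectors. KLF2 drives transcription of the gene for S1PR1, the sphingosine-1-phosphate receptor by which lymphocytes leave tissue for blood and lymph, and both are low in T cells that stay in tissue. T-bet (Tbx21) and eomesodermin (Eomes) are paired T-box factors of cytotoxic lymphocytes, and TOX, another HMG-box protein, is known for its part in exhausted CD8 T cells of chronic infection and tumours.

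On GRCm38 (GENCODE vM21) the genes are protein-coding, Tcf7 at chr11:52252371-52283014, Lef1 at chr3:131110471-131224356, S1pr1 at chr3:115710433-115715072 and Klf2 at chr8:72319033-72321656. Satb1 lies at chr17:51736187-51833290, Tox at chr4:6686353-6991557, Tbx21 at chr11:97098071-97115331 and Eomes at chr9:118478212-118486132. Antisense genes overlap Tcf7, Lef1, Tox and Eomes. Noncoding entries on the same strand overlap Satb1, Tcf7 and Lef1, so reads from these same-strand entries cannot all be told apart.

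Cells were sorted into classes by unique molecular identifiers (UMIs), the counted RNA molecules. A T cell held at least 2 summed UMIs of Cd3e, Cd3d and Cd3g, and a CD8 T cell also held a UMI of Cd8a or Cd8b1. This gave 427 CD8 T cells in the UBD overexpression library and 313 in the control library, and 185 and 271 CD8-negative T cells. Tumour cells held at least 3 Cdkn2a UMIs and no UMI of Ptprc, Cd3 genes or Ncr1. Macrophages held at least 10 UMIs of the C1q genes, fewer than 2 Cd3 UMIs, fewer than 3 Cdkn2a UMIs and no Ncr1 UMI. The T and NK gates set no limit on Cdkn2a. NK cells held an Ncr1 UMI and fewer than 2 Cd3 UMIs, and numbered 21 in the UBD overexpression library and 194 in control. CD8 T cells were 69.8% of T cells in the UBD overexpression library (95% Clopper-Pearson interval 66.0 to 73.4%) and 53.6% in control (49.5 to 57.7%). Levels are given as CPM, the usual scaling of a gene's UMIs, summed over a class, by the total UMIs of that class, with exact Poisson intervals. A gene is called higher or lower at 1.5-fold with at least 20 UMIs over both libraries.

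Classes were compared with marker lists that include genes of the gates. All 10 T cell markers were detected in CD8 T cells of both libraries, but Cd3e, Cd3d and Cd3g among them define the gate. Of the others, Trac, the T cell receptor alpha constant gene, was at 353 CPM in UBD overexpression and 351 CPM in control. Trbc1, a beta constant gene, was at 271 CPM in UBD overexpression and 640 CPM in control. Klre1, an NK receptor gene, stood at 157 CPM in UBD overexpression NK cells and 347 CPM in control NK cells. Cd3e was at 0 in both, which the Cd3 limit of the NK gate makes likely in advance. Ubd itself was low in tumour cells but above the limit of 3 counts, which was 0.0198 CPM in UBD overexpression and 0.0263 CPM in control. It was higher in UBD overexpression tumour cells, at 1.15 CPM (174 UMIs), than in control, at 0.376 CPM (43 UMIs). The median UMI count of CD8 T cells was 3037 in UBD overexpression and 4143 in control, that of CD8-negative T cells 2190 and 2579, and that of NK cells 2920 and 4826. The libraries shared 60 barcodes among the cells used. Cells of other lineages left RNA in these classes. Cdkn2a, which marked the tumour cells, reached 499 CPM in UBD overexpression CD8 T cells and 593 CPM in control CD8 T cells, or 27.8% and 31.6% of its level in tumour cells. The summed level of 7 macrophage markers in CD8 T cells was 1984 CPM in UBD overexpression and 372 CPM in control. The part of either in the results was not tested, and values without cells that hold at least 3 UMIs of Cdkn2a or of the C1q genes are given for each class. Gm42418 and Lars2, which collect ribosomal RNA reads, were lower in the UBD overexpression library, with Gm42418 at 2975 CPM in UBD overexpression and 6993 CPM in control CD8 T cells, 3504 CPM and 8030 CPM in CD8-negative T cells, and 2533 CPM and 7169 CPM in NK cells. Lars2 was 115 CPM in UBD overexpression and 284 CPM in control CD8 T cells, and their part in the results was not tested.

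In CD8 T cells Tcf7, S1pr1, Satb1 and Tbx21 were lower in the UBD overexpression library and Eomes was higher. Tcf7 and S1pr1 had the largest ratios of the 8 genes, each more than 3-fold. Satb1 and Tbx21 were lower by less than 2-fold, Eomes was 1.75-fold higher, and Lef1, Klf2 and Tox stayed inside the 1.5-fold limit.

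Tcf7 had 14 UMIs in UBD overexpression CD8 T cells and 49 in control CD8 T cells. That is 5.90 CPM (3.23 to 9.91) in UBD overexpression and 21.7 CPM (16.0 to 28.7) in control, a level 3.67-fold lower with an interval of 1.99 to 7.20. A UMI was seen in 14 of the 427 UBD overexpression cells (3.28%) and in 38 of the 313 control cells (12.1%). The intervals of the 2 levels did not overlap. To compare shares at equal depth, each cell was thinned to 1000 UMIs after gating, which left out 2 UBD overexpression and 3 control CD8 T cells. At that depth 0.706% of UBD overexpression cells and 2.58% of control cells held a Tcf7 UMI, a difference of -1.87 percentage points (-4.35 to -0.0241). At 500 UMIs the difference was -1.36 points (-3.46 to 0.0513), which includes 0, and at 2000 UMIs -3.45 points (-6.64 to -0.841). At 1000 UMIs the interval also included 0 with doublets kept (-4.00 to 0.0682) and with gates set on the thinned counts (-5.41 to 0.398). It did so too without cells that hold at least 3 UMIs of Cdkn2a or of the C1q genes (-4.80 to 0.113). The UBD overexpression share is close to that of tumour cells at the same depth, which was 0.722% in UBD overexpression and 0.732% in control. Tumour cells also express Tcf7 themselves, as given later. In macrophages, whose gate limits Cdkn2a, the share was 0.117% in UBD overexpression and 0 of 2107 cells in control, which allows up to 0.142%.

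S1pr1 had 12 UMIs in UBD overexpression CD8 T cells and 44 in control. The levels were 5.06 CPM (2.62 to 8.84) in UBD overexpression and 19.5 CPM (14.1 to 26.1) in control, 3.85-fold lower (2.0 to 8.0). At 1000 UMIs the share of cells was 0.471% in UBD overexpression and 3.23% in control, a difference of -2.76 points (-5.39 to -0.844). At 500 UMIs the difference was -0.810 points (-2.80 to 0.641), which includes 0, and at 2000 UMIs -3.51 points (-6.81 to -0.761). One control cell held 8 of the 44 UMIs. The level in UBD overexpression CD8 T cells was close to that of tumour cells, at 4.30 CPM in UBD overexpression and 5.15 CPM in control, and of macrophages, at 5.44 CPM in UBD overexpression and 3.0 CPM in control.

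Lef1 did not differ beyond counting error in summed level. It stood at 16.0 CPM (11.3 to 22.0) in UBD overexpression and 23.0 CPM (17.2 to 30.2) in control, a ratio of 0.697 with an interval of 0.446 to 1.08. The share of cells at 1000 UMIs was 1.65% in UBD overexpression and 4.19% in control, -2.55 points. That difference depended on the draw of UMIs. Over all possible draws it was -0.636 points, and at 500 and at 2000 UMIs per cell its sign turned, at 0.447 and 1.11 points.

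Klf2, the zinc finger factor upstream of S1pr1, had the most UMIs of the 8 genes in CD8 T cells. It had 186 CPM (169 to 204) in UBD overexpression and 267 CPM (246 to 289) in control, 1.44-fold lower (1.27 to 1.63) and so inside the 1.5-fold limit. Without the 2 UBD overexpression and 4 control cells that held an Ncr1 UMI it was 1.52-fold lower (1.34 to 1.73), just past that limit. The cell with the most UMIs held 36 of 441 UMIs in UBD overexpression and 112 of 604 in control. With every cell weighted equally the log2 ratio was -0.08, against -0.52 for the summed UMIs. At 1000 UMIs 10.8% of UBD overexpression cells and 12.6% of control cells held a Klf2 UMI, a difference of -1.76 points (-6.66 to 2.88). Tumour cells, at 29.9% in UBD overexpression and 27.4% in control, and macrophages, at 19.8% and 19.6%, were above both. They hold Klf2 RNA of their own, so these shares do not give the background in CD8 T cells. At the ratio to Cdkn2a given later, tumour RNA corresponds to 130 CPM of Klf2 in UBD overexpression and 123 CPM in control. Both are below the measured 186 CPM and 267 CPM.

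**Figure D1:**
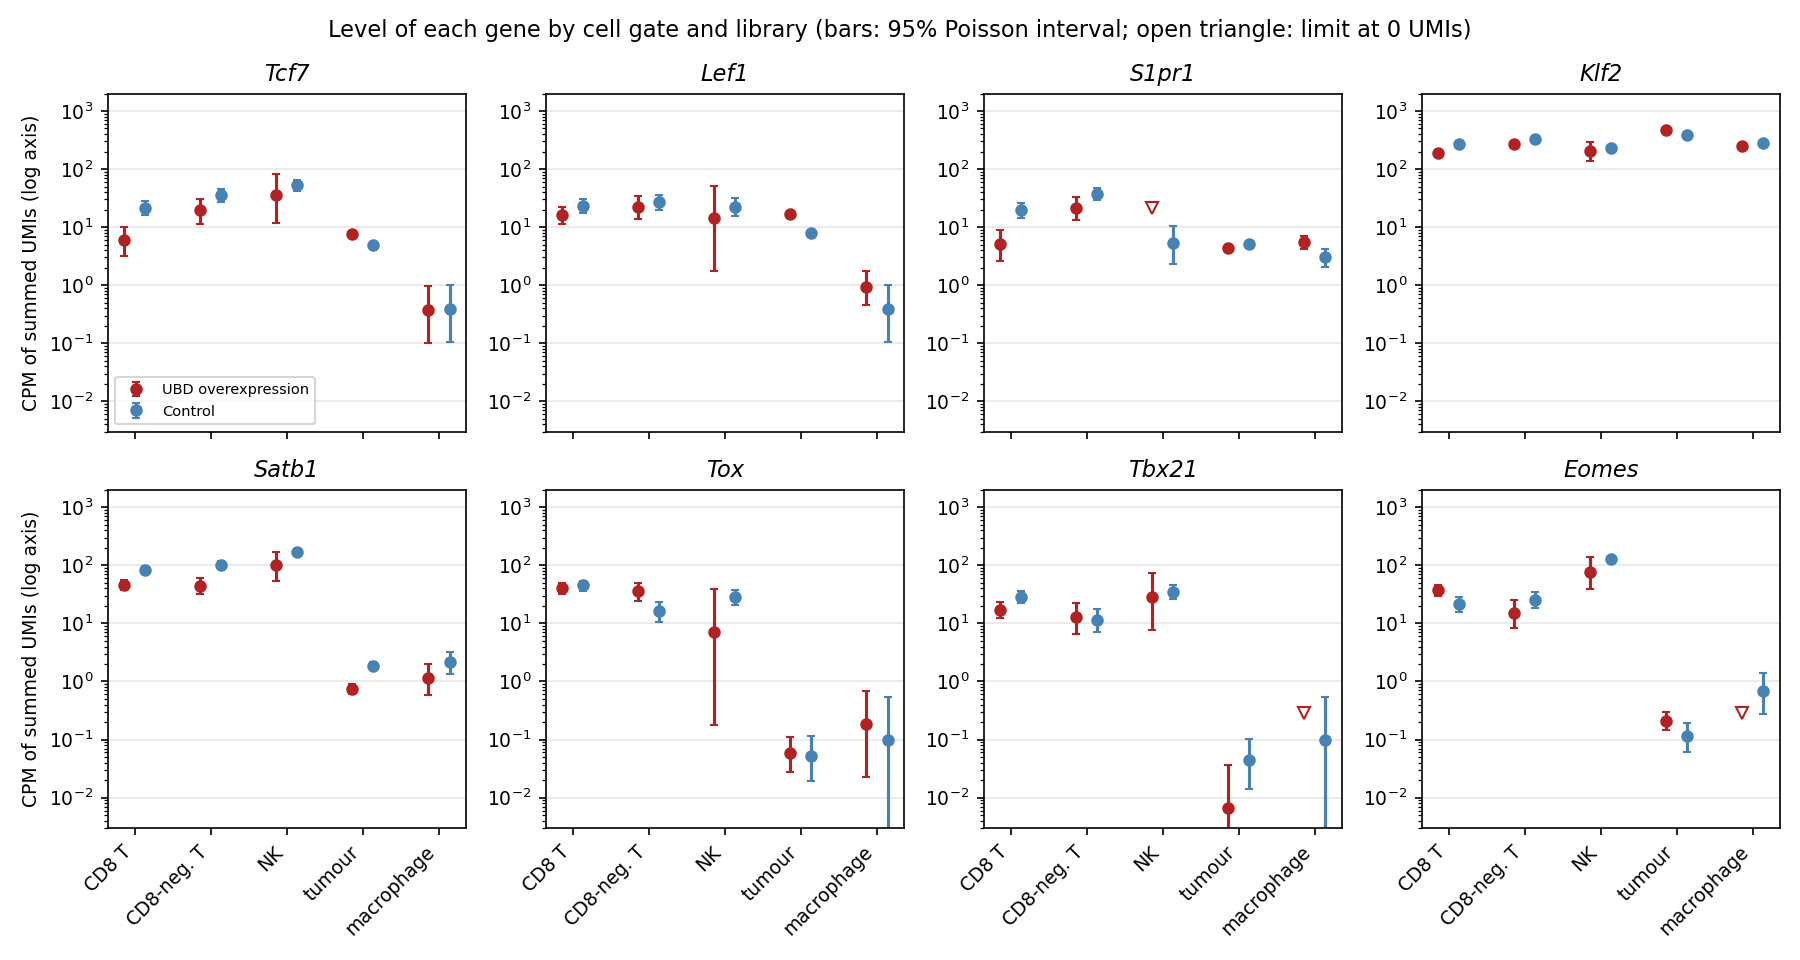
Level of each of the 8 genes in CPM of summed UMIs on a log axis, by cell class, with UBD overexpression in red and control in blue; bars are 95% Poisson intervals and open triangles the limit at 0 UMIs. In CD8 T cells the red points of Tcf7 and S1pr1, at 5.90 and 5.06 CPM, lie below the blue points at 21.7 and 19.5 CPM, while Klf2 is as high in tumour cells and macrophages as in T cells.

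Satb1 encodes a chromatin organiser that thymocytes and naive T cells express highly. It had 46.0 CPM (37.7 to 55.5) in UBD overexpression CD8 T cells and 83.2 CPM (71.7 to 95.9) in control, from 109 and 188 UMIs, 1.81-fold lower (1.42 to 2.31). At 1000 UMIs the share was 4.94% in UBD overexpression and 11.3% in control, -6.35 points (-10.7 to -2.40), and over all draws the difference was -3.39 points. At 500 UMIs it was -2.71 points (-6.10 to 0.247), which includes 0, and at 2000 UMIs -7.68 points (-13.4 to -2.16). Satb1 was low in tumour cells, at 0.751 CPM in UBD overexpression tumour cells and 1.88 CPM in control tumour cells. It was the only one of the lower genes in CD8 T cells that rested on more than 100 UMIs in each library.

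Tox, the HMG-box factor of exhausted cells, stood at 40.1 CPM (32.4 to 49.0) in UBD overexpression CD8 T cells and 45.1 CPM (36.8 to 54.8) in control. The ratio of 0.888 had an interval of 0.664 to 1.19. The share at 1000 UMIs was 5.18% in UBD overexpression and 5.48% in control. Tox thus did not differ between the libraries beyond counting error in CD8 T cells.

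The 2 T-box genes went opposite ways. Tbx21, the factor of short-lived effector cells and NK maturation, had 17.3 CPM (12.4 to 23.5) in UBD overexpression CD8 T cells and 28.8 CPM (22.2 to 36.6) in control, 1.66-fold lower (1.11 to 2.52). Its share at 1000 UMIs, 3.06% in UBD overexpression and 2.90% in control, did not follow that difference, and over all draws the difference in share was -1.88 points. Eomes, linked to memory precursors and to late dysfunctional CD8 cells, had 37.1 CPM (29.8 to 45.7) in UBD overexpression and 21.2 CPM (15.7 to 28.1) in control, from 88 and 48 UMIs. That is 1.75-fold higher (1.22 to 2.54). The share at 1000 UMIs was 4.94% in UBD overexpression and 1.61% in control, 3.33 points (0.629 to 5.99), and it was 2.94 and 4.37 points at 500 and 2000 UMIs. Eomes was the only member above its control level in CD8 T cells, and its intervals for the 2 libraries did not overlap.

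**Figure D2:**
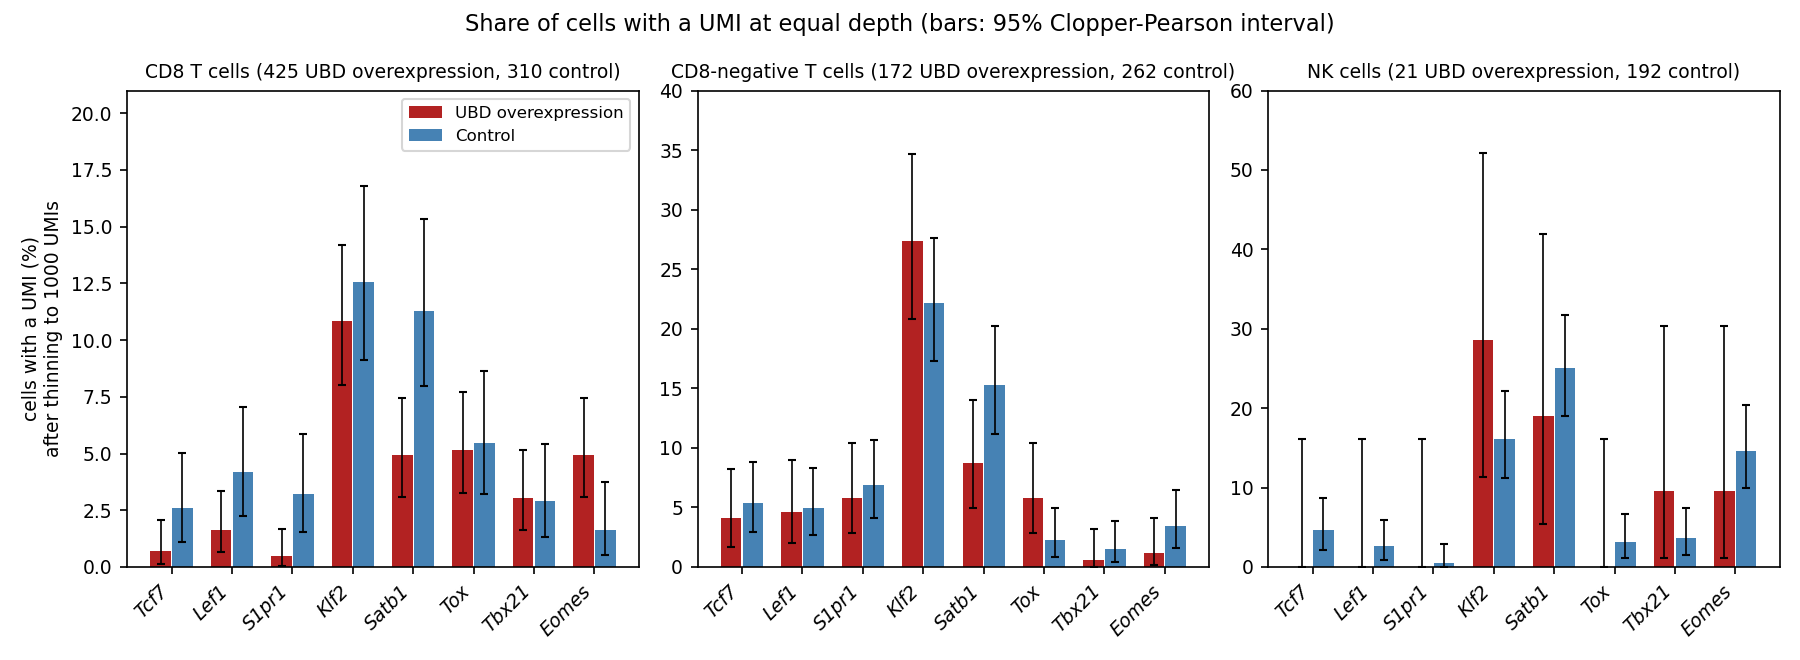
Share of cells with at least 1 UMI of each gene after every cell was thinned to 1000 UMIs, with UBD overexpression in red left of control in blue; bars are 95% Clopper-Pearson intervals. In CD8 T cells Satb1 reads 4.94% in UBD overexpression and 11.3% in control, and Eomes 4.94% and 1.61%; the 21 UBD overexpression NK cells leave wide intervals.

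Bases before the transcription start are shown for 3 transcription factor genes of those called in CD8 T cells, 2 that were lower and the 1 that was higher, to set the T-box pair beside Satb1. Each window is the 250 bases upstream of a RefSeq start on GRCm38.p6, written 5′ to 3′ on the transcribed strand. The letters searched, on both strands and chosen after the values were seen, were TCAAAG (bound by TCF and LEF factors), GGTGTG (bound by T-box factors) and CACCC (bound by KLF factors). Matches are in capitals. The windows are Satb1 at chr17:51833291-51833540 on the minus strand, Tbx21 at chr11:97115332-97115581 on the minus strand and Eomes at chr9:118477939-118478188 on the plus strand.
Satb1: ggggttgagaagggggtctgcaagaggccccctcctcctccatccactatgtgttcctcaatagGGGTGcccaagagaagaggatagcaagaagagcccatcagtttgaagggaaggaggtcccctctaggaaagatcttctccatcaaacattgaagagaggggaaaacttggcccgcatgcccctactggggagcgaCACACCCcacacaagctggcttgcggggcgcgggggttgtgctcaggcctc
Tbx21: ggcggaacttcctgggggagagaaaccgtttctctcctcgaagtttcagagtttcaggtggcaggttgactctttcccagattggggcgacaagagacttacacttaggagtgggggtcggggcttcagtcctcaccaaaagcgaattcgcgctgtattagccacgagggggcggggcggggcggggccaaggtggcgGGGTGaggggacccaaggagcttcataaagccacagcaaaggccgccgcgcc
Eomes: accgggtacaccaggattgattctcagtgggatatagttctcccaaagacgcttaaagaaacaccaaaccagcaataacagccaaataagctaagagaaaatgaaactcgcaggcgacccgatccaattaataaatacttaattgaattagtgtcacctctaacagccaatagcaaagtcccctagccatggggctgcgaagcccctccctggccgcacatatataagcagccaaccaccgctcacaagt
Satb1 has 5 RefSeq start sites in the table, whose windows held 0 to 3 KLF and 0 or 1 T-box matches, and the window shown is the one that ends at the annotated gene start. It held 1 T-box match and 2 KLF matches, of which the T-box match overlaps 1 KLF match. The Tbx21 window held 1 KLF match and the Eomes window none of the 3 motifs. None of the 3 windows shown held a TCF or LEF match, while a Lef1 window not shown, at chr3:131156044-131156293, held 2. Among 32851 windows of the same length, 13.8% held the TCF and LEF letters, 16.3% the T-box letters and 52.0% the KLF letters. Of the 8 genes 6 had a window in the table used, and S1pr1 and Tox had none.

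Of the 8 members, 4 were lower by the 1.5-fold rule in CD8 T cells (Tcf7, S1pr1, Satb1 and Tbx21), beside 13.0% of the 9660 genes that passed the same UMI minimum. Eomes alone was higher, beside 10.6% of those genes. All 8 members passed the minimum, with a median log2 ratio of -0.63 against -0.01 over all 9660 genes. Members were chosen with earlier results of these data known, so the counts are a description.

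Leaving out cells with at least 3 UMIs of Cdkn2a or of the C1q genes left 355 UBD overexpression and 280 control CD8 T cells. Tcf7 was then 7.34 CPM in UBD overexpression and 27.9 CPM in control, 3.81-fold lower (1.82 to 8.92). S1pr1 was 4.09-fold lower (1.97 to 9.54), Satb1 1.64-fold lower (1.26 to 2.15) and Eomes 1.83 times its control level (1.25 to 2.71). Tcf7, S1pr1 and Eomes thus differed by as much as in all CD8 T cells, and Satb1 by somewhat less. Tbx21 was 1.51-fold lower with an interval that reached 1 (0.976 to 2.37). Klf2 was 101 CPM in UBD overexpression and 132 CPM in control, below its levels of 186 CPM and 267 CPM in all CD8 T cells.

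**Figure D3:**
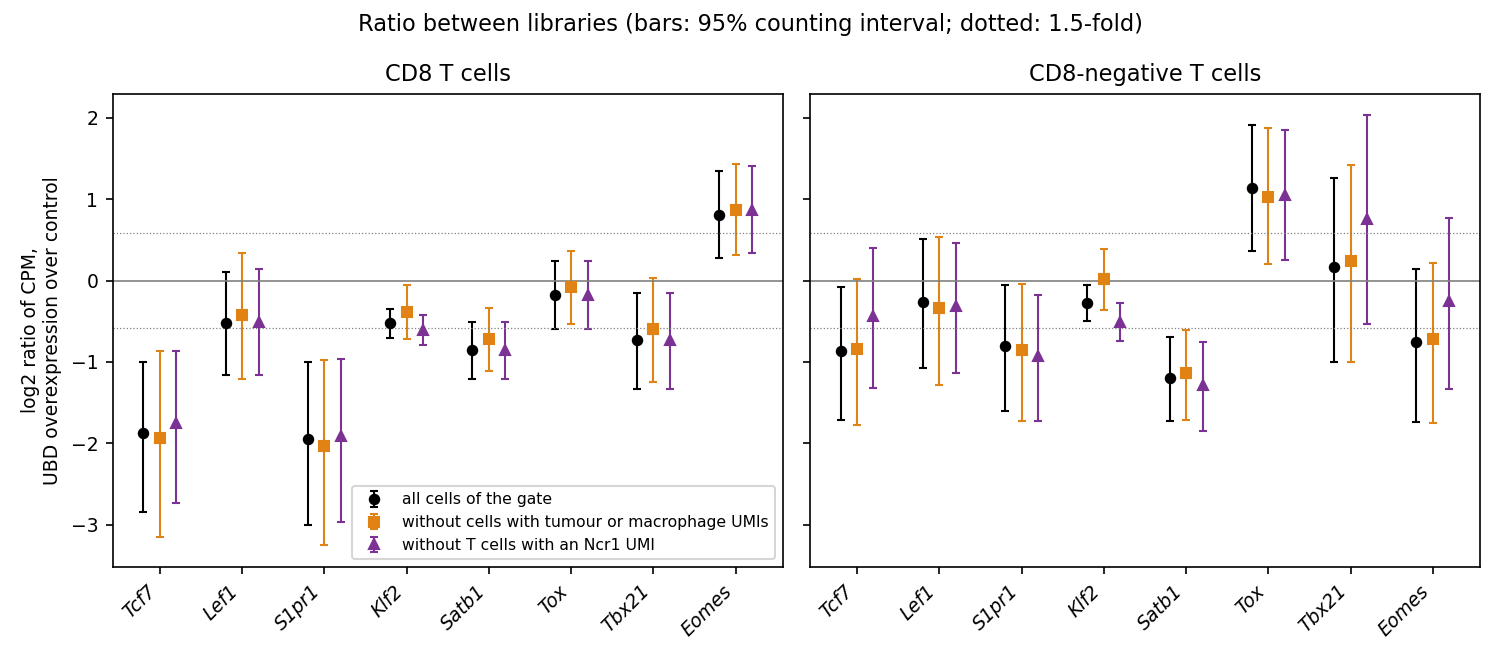
Log2 ratio of CPM, UBD overexpression over control, for each gene in CD8 T cells (left) and CD8-negative T cells (right), for all cells of the class (black circles), without cells that hold at least 3 tumour or macrophage marker UMIs (orange squares) and without T cells that hold an Ncr1 UMI (purple triangles); bars are 95% counting intervals and dotted lines mark 1.5-fold. In CD8 T cells the 3 estimates of each gene stay together, while Klf2, Tcf7 and Eomes in CD8-negative T cells shift with the cells left out.

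The tumour cells, meant as background, held some of these RNAs at levels of their own. Tcf7 stood at 7.71 CPM in UBD overexpression tumour cells and 4.89 CPM in control, Lef1 at 16.8 CPM and 7.81 CPM, and Klf2 at 468 CPM and 388 CPM, with macrophages far below for Tcf7 (0.375 CPM and 0.388 CPM) and Lef1 (0.938 CPM and 0.388 CPM). Tox, Tbx21 and Eomes were at or under 0.211 CPM in tumour cells of both libraries. If RNA of tumour cells enters T cells in a fixed ratio to Cdkn2a, the Cdkn2a of UBD overexpression CD8 T cells corresponds to 2.15 CPM of Tcf7, 4.68 CPM of Lef1, 1.20 CPM of S1pr1 and 130 CPM of Klf2. In control CD8 T cells it corresponds to 1.54 CPM of Tcf7, 2.47 CPM of Lef1, 1.63 CPM of S1pr1 and 123 CPM of Klf2. These levels are an arithmetic comparison, and the source of the RNA was not tested. For Satb1, Tox, Tbx21 and Eomes the corresponding level was under 1 CPM in CD8 T cells of both libraries. Of the 6 members with enough UMIs in tumour cells, Tcf7 (1.58-fold), Lef1 (2.16-fold) and Eomes (1.85-fold, 0.946 to 3.85, from 32 and 13 UMIs) were higher in UBD overexpression tumour cells, beside 9.23% of 15173 genes. Satb1 was lower, beside 20.5%.

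**Figure D4:**
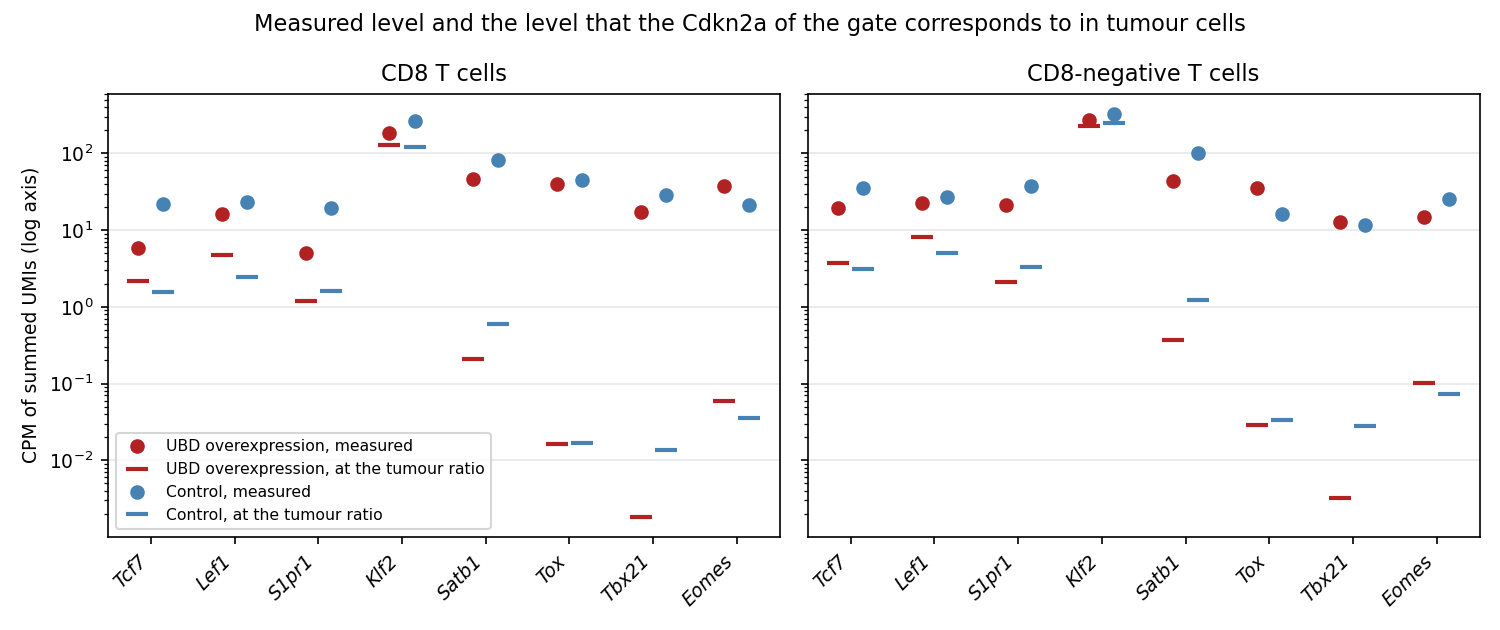
Measured CPM of each gene (circles, log axis) in CD8 T cells (left) and CD8-negative T cells (right), and the CPM that the Cdkn2a of the same cells corresponds to at the ratio found in tumour cells (dashes), with UBD overexpression in red and control in blue. Klf2 circles lie close to their dashes, with 130 of 186 CPM in UBD overexpression CD8 T cells, while Satb1, Tox, Tbx21 and Eomes circles lie far above theirs.

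By summed level, CD8-negative T cells of the UBD overexpression library had less Satb1, Tcf7 and S1pr1 than those of control, and more Tox. In the same cells the summed macrophage markers were 2794 CPM in UBD overexpression and 529 CPM in control, and Cdkn2a was at 48.9% and 64.6% of its tumour level. Satb1 was 44.1 CPM (31.7 to 59.9) in UBD overexpression and 101 CPM (86.5 to 117) in control, 2.29-fold lower (1.62 to 3.30). Tox was 35.5 CPM (24.4 to 49.9) in UBD overexpression and 16.1 CPM (10.7 to 23.3) in control, 2.20-fold higher (1.29 to 3.78), from 33 and 28 UMIs. The Satb1 and Tox intervals of the 2 libraries did not overlap. Tcf7 was 19.4 CPM in UBD overexpression and 35.2 CPM in control, 1.82-fold lower (1.06 to 3.27). S1pr1 was 21.5 CPM in UBD overexpression and 37.5 CPM in control, 1.74-fold lower (1.04 to 3.04). Eomes was 15.1 CPM in UBD overexpression and 25.4 CPM in control, and its ratio of 0.594 had an interval of 0.30 to 1.10 that includes no change. Lef1 was 22.6 CPM in UBD overexpression and 27.1 CPM in control, Klf2 273 CPM and 330 CPM, and Tbx21 12.9 CPM and 11.5 CPM, all within the 1.5-fold limit. By the rule 4 members were lower, beside 14.4% of 8555 genes, and 1 was higher, beside 11.8%. Without cells with other-lineage UMIs Satb1 was 2.20-fold lower (1.52 to 3.27), Tox 2.05 times its control level (1.15 to 3.66), S1pr1 1.80-fold lower (1.03 to 3.31) and Tcf7 1.79-fold lower with an interval that included 1 (0.986 to 3.43). The median log2 ratio of the 8 members was -0.51 and that of all genes 0.01.

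Some CD8-negative T cells carried NK cell transcripts, and more so in control. An Ncr1 UMI was present in 4 of 185 UBD overexpression cells (2.16%) and 27 of 271 control cells (9.96%). The summed level of 7 NK markers was 221 CPM in UBD overexpression and 806 CPM in control. Gzma, which is also an effector gene of T cells, made up 29.1 CPM and 503 CPM of these sums. Ncr1, Klrb1c, Klre1 and Klrk1 were lower in UBD overexpression, while Prf1 (88.2 CPM and 84.2 CPM) and Itga2 were not. Without those cells Eomes was 15.0 CPM in UBD overexpression and 17.8 CPM in control, a ratio of 0.842 (0.397 to 1.70). Tcf7 was then 20.7 CPM in UBD overexpression and 28.0 CPM in control, with a ratio of 0.740 (0.400 to 1.32). Both calls ended when the Ncr1-positive cells were left out. Satb1 was 2.44-fold lower (1.69 to 3.59), S1pr1 1.90-fold lower (1.13 to 3.31) and Tox 2.07 times its control level (1.20 to 3.62) in the remaining cells. At 1000 UMIs in the whole class only the Satb1 share differed beyond counting error. It was 8.72% in UBD overexpression and 15.3% in control, -6.55 points (-12.5 to -0.101). For this depth 13 UBD overexpression and 9 control cells were too shallow. The Satb1 interval included 0 at 500 UMIs (-7.25 to 2.64) and without other-lineage cells (-14.7 to 0.148), but not at 2000 UMIs (-18.9 to -0.862). With gates set on thinned counts Satb1, Tox (5.36 points, 0.817 to 10.2) and Tcf7 (-3.98 points, -8.30 to -0.0901) differed beyond counting error.

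CD8-negative T cells were mixed. Their gate rests on the absence of Cd8a and Cd8b1 UMIs, so CD8 T cells without a counted Cd8 UMI can fall in it. Gates were also set on counts thinned to the depth used for shares. CD8 T cells then went from 425 to 250 in UBD overexpression and from 310 to 173 in control. CD8-negative T cells went from 172 to 204 in UBD overexpression and from 262 to 202 in control. The part of missed Cd8 UMIs in the results for this class was not tested. A Foxp3 UMI, the mark of regulatory T cells, was held by 22 UBD overexpression and 47 control cells. S1pr1 had 1 UMI in those UBD overexpression cells, or 8.66 CPM (0.219 to 48.2), and 19 in control, or 85.5 CPM (51.5 to 133), beside 69.0 CPM (31.5 to 131) in control T cells with Cd4 and no Foxp3, an interval that overlaps. Satb1 had 3 UMIs in Foxp3 T cells of UBD overexpression and 21 in control, and Tox had 5 in each. Cells with a Cd4 UMI and no Foxp3 UMI numbered 22 in each library and held between 0 and 11 UMIs of a member in UBD overexpression and between 0 and 35 in control. The remaining 141 UBD overexpression and 202 control cells carried most of the class, with Satb1 at 49.3 CPM in UBD overexpression and 104 CPM in control and Tox at 34.2 CPM and 16.7 CPM. Tcf7 was 20.5 CPM in UBD overexpression and 39.8 CPM in control there, and S1pr1 20.5 CPM and 26.8 CPM with a ratio of 0.767 (0.391 to 1.43), so the S1pr1 call ended outside the Foxp3 and Cd4 cells.

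NK cells allowed little, since the UBD overexpression library held 21 of them with 140555 UMIs against 1483782 in the 194 control cells. Satb1 was 99.6 CPM (54.5 to 167) in UBD overexpression NK cells and 171 CPM (150 to 193) in control, 1.71-fold lower (1.00 to 3.18). Without cells with other-lineage UMIs, 16 and 163 cells, that call ended at 1.47-fold lower (0.786 to 3.11), and with cells weighted equally the log2 ratio turned to 0.14. The summed macrophage markers in NK cells were 1857 CPM in UBD overexpression and 392 CPM in control. Lyz2 alone made up 1423 CPM and 88.3 CPM of these sums. Csf1r and Cd68 were also higher in UBD overexpression, while C1qa (56.9 CPM and 120 CPM), C1qb, C1qc and Adgre1 were lower. The summed NK markers were 2021 CPM in UBD overexpression and 5696 CPM in control, of which Gzma made up 1145 CPM and 4143 CPM. The other NK markers were lower in UBD overexpression too. Eomes was 78.3 CPM (39.1 to 140) in UBD overexpression and 127 CPM (110 to 147) in control, and its ratio interval of 0.302 to 1.12 includes 1. Tox had 1 UMI in UBD overexpression and 42 in control, a ratio of 0.251 (0.00622 to 1.48), and Lef1 had 2 and 33. Satb1, Eomes, Tox and Lef1 were thus lower by the size rule, 4 of 7 members with enough UMIs, beside 22.4% of 6641 genes. None was higher, beside 22.2%. The intervals of Eomes, Tox and Lef1 included 1, and that of Satb1 ended just short of it, at a ratio of 0.998. Tcf7 was 35.6 CPM in UBD overexpression and 52.6 CPM in control, Klf2 206 CPM and 228 CPM (2.84 times its control level without other-lineage cells, 1.71 to 4.5), and Tbx21 28.5 CPM and 35.0 CPM. S1pr1 had no UMI in UBD overexpression NK cells, which allows up to 21.3 CPM at 3 counts, and 5.39 CPM in control.

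The order of CD8 T, CD8-negative T and NK cells was next read within each library. In control, Eomes was 6.0-fold higher in NK than in CD8 T cells (4.35 to 8.42), and CD8 T and CD8-negative T cells did not differ beyond counting error (ratio 0.837, 0.544 to 1.29). In UBD overexpression the NK level of Eomes was 2.11 times that of CD8 T cells (1.02 to 3.96), and CD8 T cells were 2.46 times as high as CD8-negative T cells (1.39 to 4.69). Satb1 was likewise highest in NK cells among these 3 classes, 2.17 times the CD8 T level in UBD overexpression (1.15 to 3.79) and 2.05 times in control (1.69 to 2.49), with CD8 T and CD8-negative T cells not apart in either library. By summed level Tcf7 was higher in NK than in CD8 T cells of both libraries. The ratio was 6.02 in UBD overexpression (1.70 to 17.7) and 2.43 in control (1.68 to 3.54). Its level was lowest of the 3 classes in CD8 T cells of both. The UBD overexpression NK level rested on 5 UMIs in 21 cells. At the thinned depth used for shares, none of those 21 cells held a Tcf7 UMI (0 to 16.1%). The share in UBD overexpression CD8 T cells was 0.706%, so the shares were too imprecise to show the order there. S1pr1 was 4.25-fold lower in CD8 T than in CD8-negative T cells in UBD overexpression (1.98 to 9.54) and 1.93-fold lower in control (1.29 to 2.89). Tox and Tbx21 were higher in CD8 T than in CD8-negative T cells in control, 2.79-fold (1.82 to 4.41) and 2.49-fold (1.49 to 4.34). In UBD overexpression the same ratios, 1.13 (0.752 to 1.73) and 1.34 (0.690 to 2.80), included 1.

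Other cells of the tumours were few. Endothelial cells, which use S1PR1 to seal vessels and KLF2 to sense flow, had S1pr1 at 258 CPM (174 to 368) in the 18 UBD overexpression cells and 246 CPM (191 to 312) in the 40 control cells. Klf2 in the same cells was 645 CPM in UBD overexpression and 1090 CPM in control. B cells held Klf2 at 661 CPM in UBD overexpression and 431 CPM in control, and Satb1 at 143 CPM and 35.3 CPM, from 26 and 19 cells. No endothelial, B, neutrophil or dendritic cell of either library held a Tox or Tbx21 UMI, and Eomes had 1 UMI in control endothelial cells and 1 in control neutrophils.

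The wider programmes around these factors were read from lists that share no gene with the 8 members. Over all genes 13.0% were lower and 10.6% higher in CD8 T cells, 14.4% and 11.8% in CD8-negative T cells and 22.4% and 22.2% in NK cells, which are the shares to set the list counts against. Of 15 naive and memory-associated genes with enough UMIs in CD8 T cells, 8 were lower in UBD overexpression and 1 was higher, with a median log2 ratio of -0.61. Ccr7, the chemokine receptor for lymph node homing, was 35.4 CPM in UBD overexpression and 91.1 CPM in control, 2.57-fold lower (1.99 to 3.36). Myb, a factor of stem-like CD8 cells, was 3.15-fold lower (1.76 to 5.94). Gpr183, an oxysterol receptor that guides migration, was the exception at 84.8 CPM in UBD overexpression and 44.7 CPM in control, 1.90-fold higher (1.49 to 2.43). It was also found in macrophages, at 43.1 CPM in UBD overexpression and 25.2 CPM in control. The same list in CD8-negative T cells had 5 of 15 genes lower and 1 higher, with a median of -0.36. Ccr7 there was 52.7 CPM in UBD overexpression and 88.2 CPM in control, 1.67-fold lower (1.21 to 2.36).

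Effector genes were mixed in CD8 T cells, with 3 of 18 lower, 3 higher and a median log2 ratio of 0.00. The granzyme genes Gzma and Gzmb were lower, 4.02-fold (3.47 to 4.67) and 2.14-fold (2.05 to 2.23), with Gzmb at 1271 CPM in UBD overexpression and 2718 CPM in control. Prdm1, which encodes the effector repressor BLIMP1, was 45.6 CPM in UBD overexpression and 23.0 CPM in control, 1.98-fold higher (1.41 to 2.81). Cx3cr1 was 1.80-fold higher (1.19 to 2.76), but macrophages held 148 CPM of it in UBD overexpression and 72.5 CPM in control, more than the 29.5 CPM and 16.4 CPM of the CD8 T cells. In CD8-negative T cells 7 of 18 effector genes were higher and 2 lower, with a median of 0.46. Ifng, the interferon gamma gene, was 178 CPM in UBD overexpression and 23.6 CPM in control, 7.51-fold higher (5.31 to 10.8), and Ccl5 was 2.13-fold higher (2.01 to 2.25). Gzma, which NK cells also express, was 17.3-fold lower (11.8 to 26.4) in those cells.

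Genes that accompany Tox in exhausted cells were mostly within the 1.5-fold limit in CD8 T cells, where 3 of 14 were lower, none higher, and the median was -0.48. Nr4a3, a nuclear receptor induced by receptor signalling, was 2.08-fold lower (1.53 to 2.85), and Ctla4 was 192 CPM in UBD overexpression and 214 CPM in control. In CD8-negative T cells 3 were lower and 3 higher. Lag3, an inhibitory receptor gene, was 64.6 CPM in UBD overexpression and 28.3 CPM in control, 2.28-fold higher (1.54 to 3.40), while Nr4a1 was 2.10-fold lower (1.60 to 2.78). The NR4A genes also belong to the early response to tissue digestion. A list of 12 such stress genes summed to 4406 CPM in UBD overexpression CD8 T cells and 7376 CPM in control CD8 T cells, and its part in these results was not tested.

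Among genes of tissue retention and exit, 3 of 12 were lower and 1 higher in CD8 T cells, with a median of -0.20. Ly6c2, carried by recently activated and memory CD8 cells, was 329 CPM in UBD overexpression and 1328 CPM in control, 4.04-fold lower (3.73 to 4.37), while macrophages held 18.3 CPM of it in UBD overexpression and 752 CPM in control. Xcl1, a chemokine that attracts dendritic cells, was 2.89-fold lower (2.33 to 3.60). Itgb7, an integrin chain of mucosal homing, was 48.5 CPM in UBD overexpression and 22.1 CPM in control, 2.19-fold higher (1.56 to 3.12). In CD8-negative T cells 2 of 12 were lower and 2 higher, with Cxcr6, a receptor of tissue-resident cells, 2.88-fold higher (1.97 to 4.23) at 79.6 CPM in UBD overexpression and 27.7 CPM in control.

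NK maturation genes were lower in 4 of 10 and higher in 1 of 10 in CD8 T cells, with a median of -0.43. Gzmc was 7.33-fold lower (6.12 to 8.85) at 56.9 CPM in UBD overexpression and 418 CPM in control, and Itgam, which macrophages express at 189 CPM in UBD overexpression and 192 CPM in control, was 3.36-fold higher (2.05 to 5.75). In CD8-negative T cells 10 of 14 were lower and 3 higher, with a median of -0.78. Klra8 and Klra9, NK receptor genes, had 4 UMIs each in UBD overexpression and 69 and 46 in control, beside the higher Ncr1 there. In NK cells themselves 4 of 14 were lower and 2 higher, with Gzmc at 2597 CPM in UBD overexpression and 2406 CPM in control. The effector list there had 10 of 14 lower and 2 higher, with Gzmb at 206 CPM in UBD overexpression and 1890 CPM in control, 9.16-fold lower (6.36 to 13.7). The naive and memory list had 3 of 10 lower in NK cells, the exhaustion list 7 of 9 and the retention list 4 of 10, with 1 of those 10 higher.

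**Figure D5:**
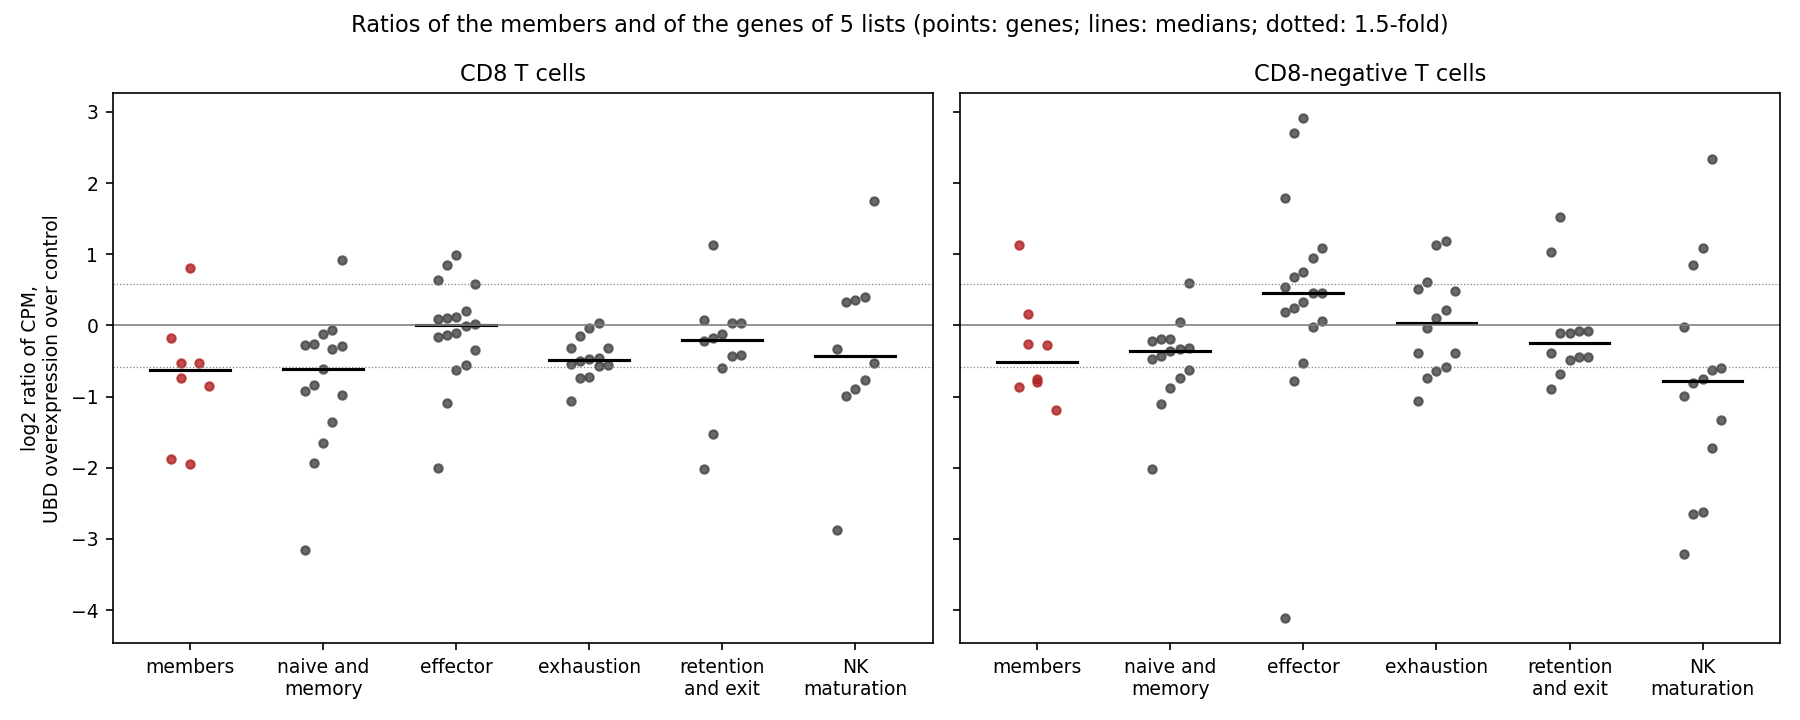
Log2 ratio of CPM, UBD overexpression over control, for the 8 members (red) and for the genes with at least 20 UMIs of 5 lists (grey) in CD8 T cells (left) and CD8-negative T cells (right); lines are medians and dotted lines mark 1.5-fold. The naive and memory list in CD8 T cells has a median of -0.61, near the -0.63 of the members, and the effector list in CD8-negative T cells has a median of 0.46.

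Cells with a UMI of at least 1 of Tcf7, Lef1 and S1pr1 were counted next. At 1000 UMIs, 33 of 597 UBD overexpression T cells (5.53%, 3.84 to 7.68%) and 69 of 572 control T cells (12.1%, 9.51 to 15.0%) held a UMI of Tcf7, Lef1 or S1pr1. CD8 T cells were 69.8% of T cells in UBD overexpression and 53.6% in control, and the part of that mix in the pooled shares was not tested. In CD8 T cells the cells with such a UMI were 11 of 425 in UBD overexpression (2.59%, 1.30 to 4.58%) and 28 of 310 in control (9.03%, 6.09 to 12.8%), a difference of -6.44 points (-10.3 to -3.08). That size depended on the draw and the depth, since at 500 UMIs the difference was -1.73 points (-4.65 to 0.737) and at 2000 UMIs -4.02 points (-8.77 to 0.463), both including 0. In CD8-negative T cells the shares were 12.8% in UBD overexpression and 15.6% in control, with intervals that overlapped. A Tcf7 UMI and an S1pr1 UMI were found in the same cell in 3 UBD overexpression and 2 control T cells. Of the 10 UBD overexpression T cells with a Tcf7 UMI 7 also held Klf2, against 14.7% of the other T cells, and of the 22 such control cells 5 held Klf2, against 16.7% of the others. Tumour cells hold RNA of both genes, with a Klf2 UMI in 29.9% of UBD overexpression tumour cells. In that library 27.3% of CD8-negative and 10.8% of CD8 T cells held a Klf2 UMI. The part of tumour RNA and of the mix of classes in these counts was not tested. None of the 10 UBD overexpression T cells with a Tcf7 UMI and 8 of the 22 such control cells held Gzmb. Havcr2, an inhibitory receptor gene, was seen in none of either. The shares among the other T cells are not given for these 2 genes, and Gzmb was 2.14-fold lower in UBD overexpression CD8 T cells as a whole. Counts this small describe the cells at hand and allow no rate.

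Over 18 sums of a class in a library that held at least 100000 UMIs, the patterns closest to each member were listed among 9589 genes by Pearson correlation of log2(CPM + 1), as a description of sums that share libraries and depth. Tbx21 was closest to Lax1 (0.985), Stk26 (0.978) and Sh2d1a (0.966). Eomes was closest to Xcl1 (0.945), Prf1 (0.939) and Gzmc (0.928), and Tox to Bspry (0.934), Gpr174 (0.921) and Gm33104 (0.906). Satb1 was closest to D16Ertd472e, Zdhhc18 and Sept1 (0.885, 0.883 and 0.875), and S1pr1 to Nr3c1, Lrrc32 and Adamts7 (0.904, 0.883 and 0.882). Klf2 was closest to Hoxb9, Pdlim7 and Kitl (0.897, 0.890 and 0.885), Lef1 to Ppp1cc, Tiprl and Pigx (0.948, 0.902 and 0.890), and Tcf7 to Cobll1, Ablim1 and Arsb (0.834, 0.821 and 0.783).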

How the data were processed

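The deposited files hold UMI counts per gene and barcode, 1 matrix per library, with no replicates. Per the submitters' processing notes, the tools were Cell Ranger and STAR with build mm10. Per the file headers, the software was version 3.1.0. For alignment settings, annotation and cell calling, nothing is stated in those sources.

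Of 14158 UBD overexpression barcodes with 204267192 UMIs and 14890 control barcodes with 173973178 UMIs, barcodes were kept with 200 genes and 500 UMIs or more and no more than 20% mitochondrial UMIs. Scrublet, run through scanpy 1.11.5, predicted doublets among 4.13% of UBD overexpression and 3.69% of control cells, which were removed and left 13057 and 13824 cells. Classes were gated on marker UMIs, and raw counts were summed per class and library. Levels carry exact Poisson intervals, ratios exact conditional binomial intervals, shares Clopper-Pearson intervals and share differences Newcombe-Wilson intervals, all at 95% and for counting error only. Each cell was thinned once to 1000 UMIs for shares. A fold of 1.5 with at least 20 summed UMIs counted as a call. From each list the genes that could be named were up to 2 with the highest and 2 with the lowest ratio among those with at least 50 summed UMIs, and genes like a member in pattern were the 3 with the highest correlation among genes with at least 20 CPM in 1 sum. The members and lists were chosen with earlier results of these data known. The alternatives were doublets kept, a stricter Cd3 gate or cell filter, other weighting, totals or scaling, other thinning depths, other UMI minimums and cells with other-lineage UMIs left out. Leaving out T cells with an Ncr1 UMI, and other depths for cells with Tcf7, Lef1 or S1pr1, were added after seeing the data. The interval and thinning code was tested on simulated data. Python 3.11.15, numpy 2.4.6, scipy 1.17.1 and pandas 2.3.3 were used. Promoter windows are from RefSeq.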

Additional observations from a re-analysis of the deposited data

Results flagged for a closer look

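Each gene below had point estimates past 1.5-fold in opposite directions in different classes of cells, and in every case the difference between classes was not tested. All values are log2 ratios of CPM, UBD overexpression over control. Tcf7 was -1.88 in CD8 T cells and -0.86 in CD8-negative T cells but 0.66 in tumour cells. Lef1 was -0.64 in NK cells, from 2 and 33 UMIs, and 0.24 there with doublets kept, and 1.11 in tumour cells. Tox was 1.14 in CD8-negative T cells and -1.99 in NK cells, where the UBD overexpression library held 1 UMI. Eomes was 0.81 in CD8 T cells and 0.89 in tumour cells, the tumour value from 32 and 13 UMIs, against -0.75 in CD8-negative T cells and -0.70 in NK cells. The Eomes value of CD8-negative T cells was -0.25 without cells that held an Ncr1 UMI. The counting intervals of Lef1 and Tox in NK cells, and of Eomes in CD8-negative T, NK and tumour cells, include no difference.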

How the results depend on the processing

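Of 183 log2 ratios recomputed under the alternatives 174 kept their sign, as did 146 of 172 share differences, and 31 of 36 counts of members stayed within 1.5 times. Most sign turns were of differences whose interval includes 0, such as Satb1 in NK cells at 500 UMIs (9.25 points) and Tcf7 in CD8-negative T cells (0.489 points). In CD8 T cells the log2 ratio ranged from -2.19 to -1.51 for Tcf7, -2.29 to -1.62 for S1pr1, -0.92 to -0.72 for Satb1, -0.88 to -0.60 for Tbx21 and 0.64 to 0.87 for Eomes. In CD8-negative T cells it ranged from -1.44 to -1.01 for Satb1, 0.84 to 1.53 for Tox, -1.02 to -0.25 for Eomes and -0.46 to 0.75 for Tbx21.

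With cells weighted equally the Klf2 log2 ratio was -0.075 in CD8 T, -0.031 in CD8-negative T and 1.18 in NK cells, and Satb1 in NK cells turned to 0.14. With doublets kept Lef1 in NK cells turned to 0.24. Without cells with other-lineage UMIs Klf2 was 0.016 in CD8-negative T and 1.5 in NK cells, and 2 members were lower and 1 higher in NK cells. With at least 50 UMIs 2 members were lower in NK cells, fewer genes being tested. Without T cells that held an Ncr1 UMI, 2 members were lower and 2 higher in CD8-negative T cells and Klf2 there was -0.50. In percentage points, thinning to 500 UMIs gave Lef1 0.447 and S1pr1 -0.810 in CD8 T, Klf2 -3.24 in CD8-negative T and Tbx21 -2.58 in NK cells. Thinning to 2000 UMIs gave Lef1 1.11 and Tbx21 -2.67 in CD8 T, S1pr1 -7.39 in CD8-negative T, and Klf2 -4.02 and Satb1 -23.0 in NK cells. Except for the UMI minimum, the cause was not tested.

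No paired analysis was possible because each condition had 1 library. Library and condition cannot be told apart. The 21 UBD overexpression NK cells and the low UMI counts of Tcf7 and S1pr1 limit what depth can show.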
